A study of Mus musculus with 30 samples.

Results

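The PIWI proteins and piRNA biogenesis factors described here are 10 mouse genes, chosen by name as the core of the piRNA machinery: Piwil1, Piwil2, Piwil4, Mov10l1, Pld6, Mael, Henmt1, Asz1, Gtsf1 and Tdrkh. All 10 had a row among the 65534 rows of the deposited table, and all 10 passed the filter on low values. Polyadenylated RNA was sequenced from germ cells enriched from mouse testes in 30 libraries, 1 per animal, from 14 litters. Mutant animals were homozygous for a Prdm9 mutant allele (Prdm9-/-), with 5 libraries at each of 8, 12 and 16 days post partum (dpp). Non-mutant animals also numbered 5 at each age. They were 3 Prdm9+/+ and 2 Prdm9+/- animals at 8 dpp, 1 Prdm9+/+ and 4 Prdm9+/- animals at 12 dpp, and 2 Prdm9+/+ and 3 Prdm9+/- animals at 16 dpp. All groups shared the strain, which the labels give as C57BL/6J with under 10% 129S1/SvImJ, and all animals were male. The allele is carried in every cell of the animal, and the labels do not describe the mutation further. PRDM9 is a histone methyltransferase that places meiotic recombination sites, and spermatocytes without it arrest in prophase.

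PIWI-interacting RNAs (piRNAs) are small RNAs of the germ line, bound by PIWI proteins, that silence transposons and other transcripts. In the mouse, pre-pachytene piRNAs are made in fetal and early postnatal germ cells and in spermatogonia, whereas pachytene piRNAs come from separate loci that switch on in pachytene spermatocytes under the transcription factor MYBL1. PIWIL4 works with pre-pachytene piRNAs, PIWIL1 with pachytene piRNAs, and PIWIL2 with both, and most of the factors that cut, trim and cap the ends of piRNAs serve both kinds. As classed here from that background, Piwil4 is a pre-pachytene member, Piwil1 and Henmt1 are pachytene members (the place of Henmt1 is the least certain), and Piwil2, Mov10l1, Pld6, Mael, Asz1, Gtsf1 and Tdrkh belong to both.

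The cells were not germ cells alone. The 8 Sertoli markers summed to between 4908.53 and 8360.34 TPM over all groups, with none at a median of 0. At 16 dpp the 8 pachytene and diplotene markers summed to 137.91 to 182.66 TPM in mutants and to 262.81 to 1195.46 TPM in non-mutants. Fewer cells of a type and less RNA per cell cannot be told apart in such bulk libraries. Prdm9 itself read 6.89 to 12.77 TPM in mutants and 19.71 to 34.41 TPM in non-mutants at 16 dpp. A litter at 12 dpp went against its labels, with 19.23 TPM of Prdm9 in Prdm9-/- replicate 5 and 9.16 TPM in Prdm9+/- replicate 4. The library of Prdm9-/- replicate 1 at 8 dpp stood apart for these genes: it had the highest value of its group for all 10, between 1.33 times (Pld6) and 2.61 times (Piwil4) the mean of the other 4. Calls on members that changed without these libraries are given beside the result.

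The promoters of 3 members are shown because their transcripts moved differently at 16 dpp: that of Piwil1, the member with the largest change, that of Pld6, the other member that changed, and that of Mov10l1, which passed no test between genotypes. Each runs from 250 bases before to 50 bases after the start given by RefSeq on GRCm38, 5′ to 3′ on the strand of the gene. Capitals mark the motifs CAGTTG and CNGTTA, which resemble the core that MYB proteins bind, read on both strands.
Piwil1: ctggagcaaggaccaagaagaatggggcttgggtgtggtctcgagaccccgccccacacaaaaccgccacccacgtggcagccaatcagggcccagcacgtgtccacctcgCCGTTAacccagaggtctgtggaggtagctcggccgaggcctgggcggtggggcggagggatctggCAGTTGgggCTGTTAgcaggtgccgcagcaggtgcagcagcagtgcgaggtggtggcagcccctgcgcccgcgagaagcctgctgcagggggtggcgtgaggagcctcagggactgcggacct
Pld6: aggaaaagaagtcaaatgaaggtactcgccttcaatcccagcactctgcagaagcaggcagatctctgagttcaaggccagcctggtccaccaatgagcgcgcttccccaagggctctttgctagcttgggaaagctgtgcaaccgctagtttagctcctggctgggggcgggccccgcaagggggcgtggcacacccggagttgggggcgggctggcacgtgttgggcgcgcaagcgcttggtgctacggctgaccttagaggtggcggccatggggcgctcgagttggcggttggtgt
Mov10l1: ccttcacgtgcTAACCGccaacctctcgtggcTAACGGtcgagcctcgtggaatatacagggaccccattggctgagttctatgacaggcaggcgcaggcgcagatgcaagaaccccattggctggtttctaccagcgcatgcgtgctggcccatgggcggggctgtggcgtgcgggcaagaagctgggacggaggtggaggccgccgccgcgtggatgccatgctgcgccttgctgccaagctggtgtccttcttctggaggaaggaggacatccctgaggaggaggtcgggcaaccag
The window of Piwil1 lies at chr5:128735996-128736295 on the plus strand, inside the gene span of GENCODE M21 (chr5:128702524-128755474). It holds 1 CAGTTG, beginning 73 bases before the start, and 2 CNGTTA, beginning 139 and 64 bases before it. The window of Pld6 lies at chr11:59787608-59787907 on the minus strand and holds neither motif, and a second window that RefSeq gives for this gene holds neither. That of Mov10l1 lies at chr15:88982744-88983043 on the plus strand and holds 2 CNGTTA on the opposite strand. Over all 32851 promoter windows, 13.7% held CAGTTG and 23.3% held CNGTTA. Of the 11 windows that matched 9 of the members, 1 held CAGTTG, and 4 held CNGTTA: those of Piwil1, Mael, Tdrkh and Mov10l1. Both motifs were picked after the values of the members had been seen, and a match in these letters is a description of the sequence, not a binding site.

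The members spanned a wide range of levels. TPM is a length-scaled share of the RNA in a library, so levels can be compared between genes. Mael, a component of the nuage granules where piRNAs are made, was highest at every age, with a mean of 184.5 TPM in mutants and 256.2 TPM in non-mutants at 16 dpp. Below it in non-mutants at 16 dpp stood Piwil2 (137.1 TPM), Mov10l1 (131.1 TPM), Piwil1 (70.4 TPM), Gtsf1 (64.5 TPM), Asz1 (55.3 TPM), Tdrkh (47.2 TPM), Pld6 (33.8 TPM), Henmt1 (16.5 TPM) and Piwil4 (5.31 TPM). In that order the ranges of neighbours overlapped from Piwil2 down to Pld6. They did not overlap between Mael and Piwil2, between Pld6 and Henmt1, or between Henmt1 and Piwil4. Piwil1 was the lowest member in both classes at 8 and 12 dpp and stayed lowest in mutants at 16 dpp. The SD was a median of 12.3% of the mean over the members in mutants at 16 dpp and 18.3% in non-mutants. It reached 69.4% for Piwil1 in non-mutants at 16 dpp, the widest spread of any member in any group.

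**Figure D1:**
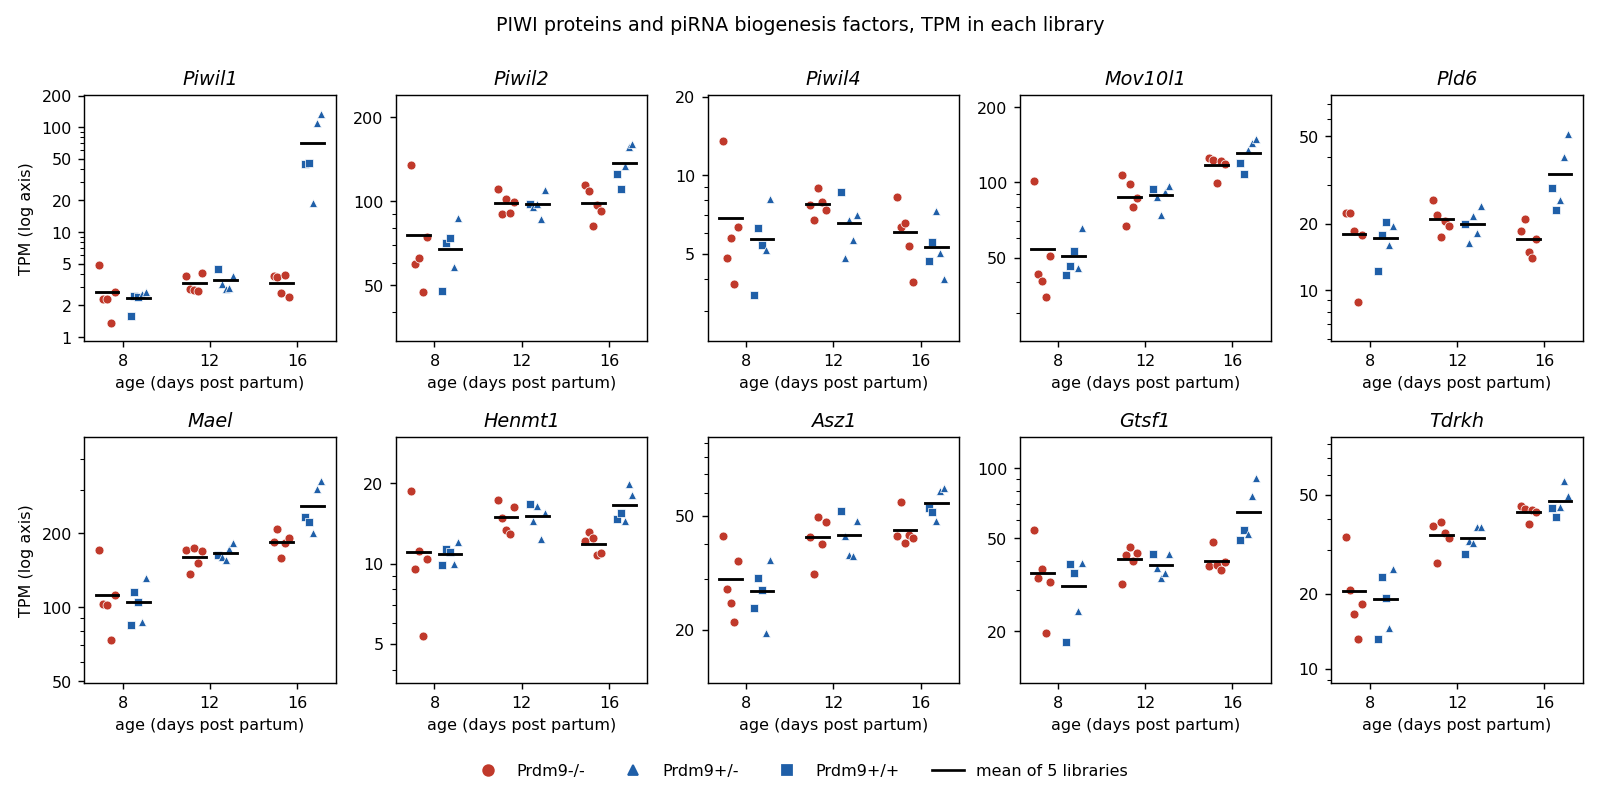
TPM of each member (log axis) at 8, 12 and 16 days post partum, with 1 point per library, mutants left (circles) and non-mutants right (triangles Prdm9+/-, squares Prdm9+/+), and bars at the mean of 5. At 16 dpp the 5 mutant points of Piwil1 lie between 2.39 and 3.89 TPM and the 5 non-mutant points between 18.87 and 134.74 TPM.

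Among the PIWI proteins, Piwil1 (MIWI, the PIWI protein of pachytene spermatocytes and round spermatids) fell in mutants at 16 dpp. It had 3.82, 3.70, 2.64, 3.89 and 2.39 TPM in the 5 mutants, against 44.41 and 45.36 TPM in the Prdm9+/+ animals and 18.87, 108.77 and 134.74 TPM in the Prdm9+/- animals. The groups did not overlap, and the lowest non-mutant was still above every mutant by several times. The log2 fold change of TPM + 1 was -3.76 (SE 0.312; limma adjusted p = 1.47e-09), lower in 5 of 5 litters. Within litters the mutant had between 0.018 and 0.202 of the TPM of its litter mate. Over the same non-mutants, the pachytene and diplotene markers summed to 262.81 TPM in the library with 18.87 TPM of Piwil1 and to 1195.46 TPM in that with 134.74 TPM. The ratio of Piwil1 to this sum was 0.0144 to 0.0236 in mutants and 0.0718 to 0.114 in non-mutants. The sum had a baseline, at 92.64 to 122.28 TPM in mutants and 102.62 to 126.98 TPM in non-mutants at 12 dpp. The ratio in mutants therefore rests largely on that baseline and is not a level per pachytene cell. Taken singly, 5 of the 6 markers tested fell in mutants at 16 dpp, with a median log2 change of -2.89. How far the share of pachytene cells sets the Piwil1 level was not tested.

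Piwil2 (MILI), which binds both kinds of piRNA, had 114.44, 108.51, 81.30, 97.24 and 92.10 TPM in mutants at 16 dpp, against 125.12 and 110.36 TPM in Prdm9+/+ and 133.60, 156.46 and 159.92 TPM in Prdm9+/- animals. The groups overlapped by a single pair of values. Its log2 fold change was -0.47 (SE 0.178; limma adjusted p = 0.213), with the mutant lower in 5 of 5 litters. With the litter as a block within 16 dpp the change was the same and the adjusted p was 0.0374. Piwil4 (MIWI2), the PIWI protein of fetal germ cells and spermatogonial stem cells, had 8.23, 6.35, 6.54, 5.36 and 3.88 TPM in mutants, against 4.69 and 5.56 TPM in Prdm9+/+ and 7.29, 5.02 and 4.0 TPM in Prdm9+/- animals. The groups overlapped over most of their range. Its log2 fold change was 0.15 (SE 0.221; limma adjusted p = 0.83), higher in the mutant of 4 of 5 litters.

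Of the factors that process piRNA precursors, only Pld6 fell at 16 dpp under the main test. PLD6 (MitoPLD or Zucchini) is a mitochondrial outer membrane protein needed to cut precursors. Pld6 had 18.55, 20.94, 14.93, 13.95 and 17.04 TPM in mutants, against 29.07 and 22.99 TPM in Prdm9+/+ and 25.66, 40.00 and 51.09 TPM in Prdm9+/- animals. The groups did not overlap, though 22.99 TPM in a Prdm9+/+ animal was close to the highest mutant. The log2 fold change was -0.90 (SE 0.202; limma adjusted p = 0.0062), lower in 5 of 5 litters. Against the 2 Prdm9+/+ libraries alone it was -0.585 with an adjusted p of 0.442. Henmt1, the methyltransferase that protects piRNA 3′ ends, had 12.10, 13.11, 12.45, 10.76 and 10.95 TPM in mutants, against 14.74 and 15.42 TPM in Prdm9+/+ and 14.45, 19.83 and 18.08 TPM in Prdm9+/- animals. The groups did not overlap, but the log2 fold change of -0.44 (SE 0.169) had a limma adjusted p of 0.223, with the mutant lower in 5 of 5 litters. Mov10l1, the RNA helicase that feeds precursors into processing, had 99.42 to 125.02 TPM in mutants and 107.92 to 148.72 TPM in non-mutants. Tdrkh, a Tudor protein that tethers PIWI proteins for trimming, had 38.14 to 45.14 TPM in mutants and 40.72 to 56.79 TPM in non-mutants. Their log2 fold changes were -0.15 (SE 0.179; limma adjusted p = 0.784) for Mov10l1 and -0.13 (SE 0.172; limma adjusted p = 0.806) for Tdrkh, and the groups overlapped for both. Against Prdm9+/+ libraries alone both of these values were above 0, at 0.04 for Mov10l1 and 0.009 for Tdrkh.

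Among the remaining members, Gtsf1, a zinc-finger partner of PIWI proteins that aids target cleavage, had 37.98, 48.09, 38.53, 36.66 and 39.58 TPM in mutants, against 49.33 and 54.50 TPM in Prdm9+/+ and 52.26, 76.23 and 90.42 TPM in Prdm9+/- animals. No mutant reached the lowest non-mutant, though 48.09 and 49.33 TPM were close. The log2 fold change was -0.64 (SE 0.204; limma adjusted p = 0.0987), with the mutant lower in 5 of 5 litters. It passed under 5 of the 41 alternatives (adjusted p 0.0354 to 0.0492), among them the fit without Prdm9-/- 8 dpp replicate 4 (0.0463). Mael had 157.57 to 208.21 TPM in mutants and 199.08 to 326.62 TPM in non-mutants, a log2 fold change of -0.45 (SE 0.153; limma adjusted p = 0.131), with the mutant lower in 5 of 5 litters. With litter as a random effect, Mael (adjusted p = 0.0427) and Gtsf1 (adjusted p = 0.0354) passed the test. Asz1 (GASZ), a mitochondrial scaffold of the processing machinery, had 40.30 to 55.86 TPM in mutants and 47.85 to 62.69 TPM in non-mutants, a log2 fold change of -0.30 (SE 0.159; limma adjusted p = 0.455). The groups of Mael and Asz1 overlapped.

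In all, 2 of 10 members fell in mutants at 16 dpp and 0 rose, where 3.26% of the 20021 rows tested were called, 2.75% lower. Of the rest, 7 members had values below 0 and 1, Piwil4, above. The median of the 10 was -0.44 on the log2 scale, against 0.07 over all rows. The groups did not overlap for 4 members, Piwil1, Pld6, Henmt1 and Gtsf1, each lower in mutants, where 2.28% of rows had every mutant below every non-mutant and 2.07% the opposite. By stage as classed here, Piwil1 fell and Henmt1 did not among the 2 pachytene members. Of the 7 that serve both kinds 1 fell, and the pre-pachytene member Piwil4 passed no test. Unlike Piwil1, Henmt1 had a non-mutant step to 16 dpp of only 0.12 (limma adjusted p = 0.648). This step therefore does not bear out a pachytene class for Henmt1, and the count by stage depends on that uncertain class. Without Prdm9-/- 8 dpp replicate 1, which enters this contrast only through the pooled spread, 4 members fell, Piwil2 (adjusted p = 0.0437) and Mael (adjusted p = 0.046) being the others. With litter as a random effect 4 fell as well, where 1103 of the 20021 rows were called, 739 lower and 364 higher, against 551 lower and 102 higher in the fit without it. The mutant was lower in every litter for 6 members. Such litter counts, here and above, rest on the same 5 litters for every member. The share of all rows lower in every litter was not counted. Macrophage markers summed to 75.44 to 150.72 TPM in mutants and to 55.42 to 113.26 TPM in non-mutants at this age, all 5 of them with fitted differences above 0 (median 0.571 on the log2 scale). Leydig cell markers summed to 160.25 to 474.06 TPM in mutants and to 96.22 to 357.77 TPM in non-mutants (5 of 6 above 0, median 0.698), and erythroid markers to 108.60 to 446.54 TPM in mutants and to 50.17 to 277.13 TPM in non-mutants (3 of 3 above 0, median 0.971). None of these markers passed the test and none had a median of 0. Sertoli, peritubular myoid and endothelial markers had medians of 0.092, 0.108 and 0.228, with 0 called. Of the pachytene and diplotene markers 5 of 6 fell (median -2.89). Leptotene and zygotene markers had 7 of 8 below 0 (median -0.24, 0 called). Of the germ cell markers, a list that includes Mael, 1 of 5 fell (median -0.176). Undifferentiated and differentiating spermatogonia markers had medians of -0.021 and 0.113, with 0 called. What part any of these cells have in the changes was not tested.

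**Figure D2:**
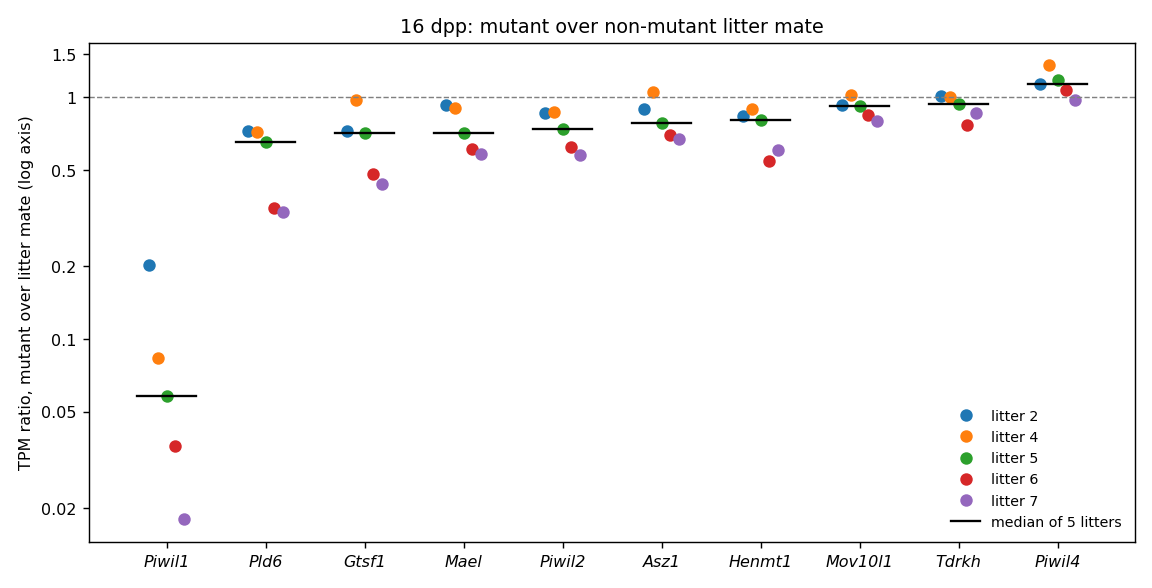
TPM ratio of each mutant to its non-mutant litter mate at 16 dpp (log axis), 1 point per litter, with bars at the median of 5 litters and members ordered by it. Piwil1 lies at 0.018 to 0.202 and Pld6 at 0.334 to 0.723, while Piwil4 lies at 0.97 to 1.35.

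Among pairs of litter mates Piwil1 and Pld6 had the lowest median ratios. In litters 6 and 7, whose non-mutants were Prdm9+/- replicates 2 and 3, Pld6 in the mutant was 0.349 and 0.334 of its litter mate, and in the other 3 litters it was 0.649 to 0.723. Piwil1 was likewise lowest in these litters, at 0.036 and 0.018. These same Prdm9+/- libraries had the highest pachytene marker sums of the non-mutants, 951.46 and 1195.46 TPM, and Prdm9+/- replicate 3 had the highest value of its group for 7 of the members. Median ratios of the remaining members ran from 0.707 (Gtsf1) to 1.13 (Piwil4).

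With age, 6 members passed the test at the step to 12 dpp in each class, and at the step to 16 dpp 6 passed it in non-mutants and 0 in mutants. At the step to 12 dpp, 6 members rose in mutants (Piwil2, Mov10l1, Mael, Henmt1, Asz1 and Tdrkh), where 29.7% of rows were called, 17.5% higher (3496 rows higher and 2452 lower, against 2815 higher and 3124 lower under median-ratio scaling). The 6 that rose in non-mutants were the same genes (6 shared), where 32.5% of rows were called, 20.3% higher (4067 rows higher and 2430 lower, against 2845 higher and 3464 lower under median-ratio scaling and 3245 higher and 3038 lower under quantile normalization). The share of all rows called higher in both classes was not counted. Mov10l1 rose by 0.78 in mutants and 0.81 in non-mutants on the log2 scale (SE 0.179 in each; limma adjusted p = 0.00135 and 0.000923), and Tdrkh rose by 0.78 and 0.81 (SE 0.172 in each; limma adjusted p = 0.000953 and 0.000575). Mael rose by 0.56 in mutants and 0.68 in non-mutants (SE 0.153; limma adjusted p = 0.00632 and 0.00106). The calls of Piwil2, Henmt1 and Asz1 in mutants did not hold without the litter with Prdm9 against its labels (litter 13), which left 3 members risen there. The same 3 calls were lost without Prdm9-/- 8 dpp replicate 4 or without Prdm9-/- 12 dpp replicate 5. In non-mutants, 4 rose without litter 13, and Piwil2 (adjusted p = 0.056) and Henmt1 (adjusted p = 0.0897) lost their calls. With litter as a random effect Piwil2 lost its call in mutants (adjusted p = 0.0809) and Henmt1 in non-mutants (adjusted p = 0.0664). The rise of Henmt1 in non-mutants (0.43; limma adjusted p = 0.0482) held in 6 of 30 fits that left out 1 library each, and that of Piwil2 in mutants (0.46; limma adjusted p = 0.0481) in 7 of 30. Piwil1, Piwil4, Pld6 and Gtsf1 had fitted steps between 0.20 and 0.42 in the 2 classes and passed no test. The mutant steps to 12 dpp rest on an 8 dpp group whose replicate 1 had 135.36 TPM of Piwil2 against 47.40 to 74.50 TPM in its group mates. Without that library Piwil4 also rose (0.51; limma adjusted p = 0.0396).

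At the step to 16 dpp, 0 members rose or fell in mutants, where 12.1% of rows were called, 6.21% higher and 5.89% lower. In non-mutants 6 rose (Piwil1, Mov10l1, Pld6, Mael, Gtsf1 and Tdrkh), where 21.8% of rows were called, 8.88% higher (1777 rows higher and 2595 lower, against 2623 higher and 1573 lower under median-ratio scaling). Piwil1 rose by 3.70 in non-mutants (SE 0.312; limma adjusted p = 7.97e-10), with a mean of 3.46 TPM at 12 dpp and 70.4 TPM at 16 dpp, and had a step of 0.01 in mutants (limma adjusted p = 0.987), with means of 3.24 and 3.29 TPM. Gtsf1 rose by 0.69 (SE 0.204; limma adjusted p = 0.0148), Pld6 by 0.68 (SE 0.202; limma adjusted p = 0.0164), Mael by 0.60 (SE 0.153; limma adjusted p = 0.00532), Mov10l1 by 0.55 (SE 0.179; limma adjusted p = 0.0258) and Tdrkh by 0.48 (SE 0.172; limma adjusted p = 0.0446) in non-mutants. In mutants the steps of these genes were -0.01 for Gtsf1, -0.29 for Pld6, 0.20 for Mael, 0.43 for Mov10l1 and 0.32 for Tdrkh, none past the threshold. The rise in non-mutants rested in part on 2 libraries: without Prdm9+/- 16 dpp replicate 3, 2 members rose (Piwil1 and Mael), and without Prdm9+/- 16 dpp replicate 2, 3 rose (these and Gtsf1). Tdrkh lost its call in non-mutants without litter 13 (0.515; adjusted p = 0.0559) and with litter as a random effect (0.479; adjusted p = 0.0631). When Prdm9-/- 8 dpp replicate 1 was left out, Mov10l1 also rose in mutants (adjusted p = 0.0188) and Piwil2 in non-mutants (adjusted p = 0.009). Piwil4 had fitted steps of -0.33 in mutants and -0.26 in non-mutants, neither past the threshold.

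**Figure D3:**
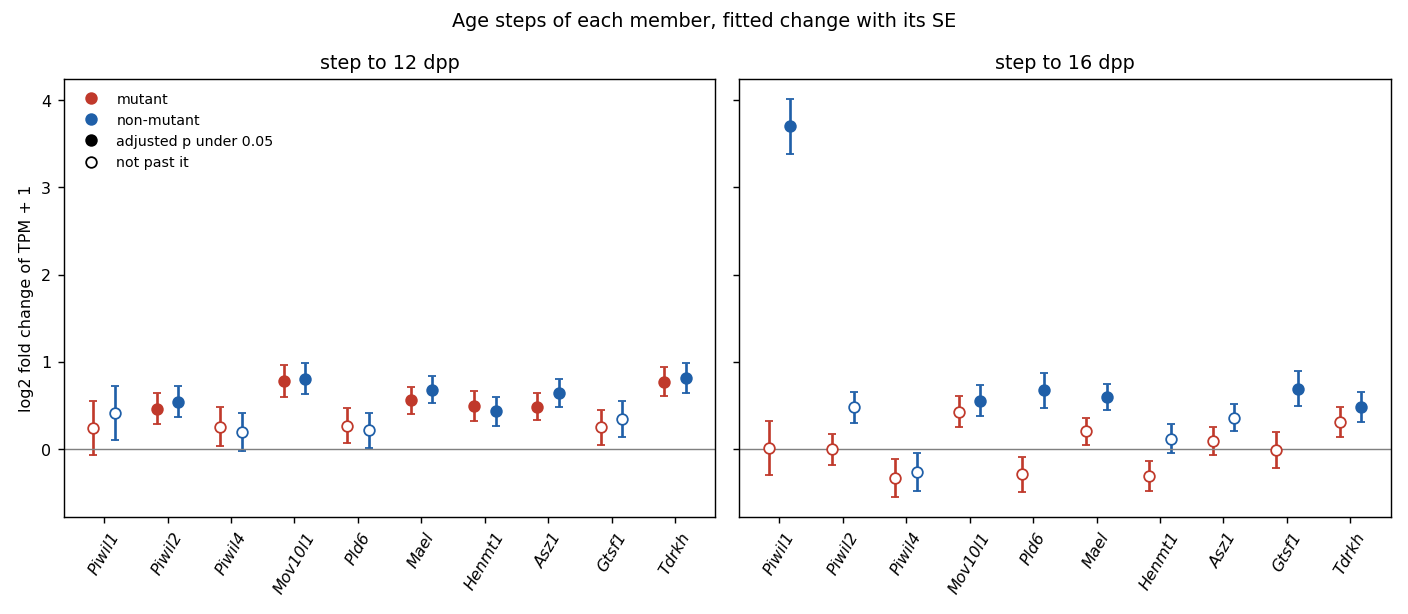
Fitted log2 change of TPM + 1 with its SE at each age step, mutants left and non-mutants right in each pair. Filled points passed an adjusted p of 0.05. At the step to 16 dpp Piwil1 sits at 0.01 in mutants and 3.70 in non-mutants.

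The test of whether the steps differed between classes called Piwil1 alone among the members. Its step to 16 dpp was smaller in mutants (difference of the log2 steps -3.69, SE 0.441; limma adjusted p = 4.79e-06), where 1.35% of rows were called, 1.26% lower and 0.0849% higher. Pld6 had a difference of -0.96 (SE 0.286; limma adjusted p = 0.121) and Gtsf1 of -0.71 (SE 0.289; limma adjusted p = 0.476). Without Prdm9-/- 8 dpp replicate 4, Pld6 passed as well (adjusted p = 0.0314), and it did so with litter as a random effect (adjusted p = 0.0361). The other members lay between -0.48 (Piwil2) and -0.07 (Piwil4). The step to 12 dpp gave differences between -0.17 and 0.06, with 0 called among members or among all rows (367 rows at an unadjusted p under 0.05).

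At the earlier ages no member passed the test between genotypes. At 12 dpp the log2 differences of mutants from non-mutants ran from -0.07 (Piwil1) to 0.22 (Piwil4), with SEs of 0.153 to 0.312, and at 8 dpp from -0.07 (Henmt1) to 0.17 (Gtsf1). The median of the members at 8 dpp was 0.08, and -0.094 without Prdm9-/- 8 dpp replicate 1. At both ages limma called 0 members and 0 rows of 20021 (225 rows at 12 dpp and 417 at 8 dpp at an unadjusted p under 0.05), and the groups of every member overlapped. Of all rows, 0.0849% had every mutant lower and 0.115% every mutant higher at 12 dpp, and 0.0499% had every mutant lower and 0.13% every mutant higher at 8 dpp. Piwil1 read 2.72 to 4.04 TPM in mutants and 2.87 to 4.47 TPM in non-mutants at 12 dpp, a low level before its rise in non-mutants. Piwil1 overlaps an antisense gene, so the source of this level is uncertain. Heterozygotes against wild-type animals gave differences between -0.06 (Asz1) and 0.23 (Pld6), with 0 of 18668 rows called (1972 at an unadjusted p under 0.05).

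Members were also set against Piwil2, which serves both kinds of piRNA, in the same library. Piwil2 itself was lower in the mutant of 5 of 5 litters at 16 dpp. These ratios are a description with no test. Piwil1 over Piwil2 averaged 0.0332 ± 0.005 in mutants and 0.489 ± 0.28 in non-mutants at 16 dpp (SD, n = 5 each), and between 0.0328 and 0.0355 in both classes at 8 and 12 dpp. Pld6 over Piwil2 averaged 0.173 ± 0.020 in mutants and 0.242 ± 0.050 in non-mutants at 16 dpp, and the groups, apart in TPM, overlapped in this ratio. Henmt1 over Piwil2 averaged 0.122 ± 0.018 in mutants and 0.121 ± 0.013 in non-mutants. For Tdrkh the order was the other way, 0.436 ± 0.034 in mutants and 0.346 ± 0.024 in non-mutants, with no overlap. Mov10l1 over Piwil2 was likewise 1.196 ± 0.082 in mutants and 0.960 ± 0.037 in non-mutants. In TPM itself Tdrkh averaged 42.7 in mutants and 47.2 in non-mutants, and Mov10l1 117.4 and 131.1, so neither mean was higher in mutants. How many of all rows would stand apart in such a ratio was not counted. Piwil4 over Piwil2 went down with age in both classes, with means of 0.0876, 0.0786 and 0.0616 in mutants and of 0.0829, 0.0672 and 0.0399 in non-mutants at 8, 12 and 16 dpp.

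**Figure D4:**
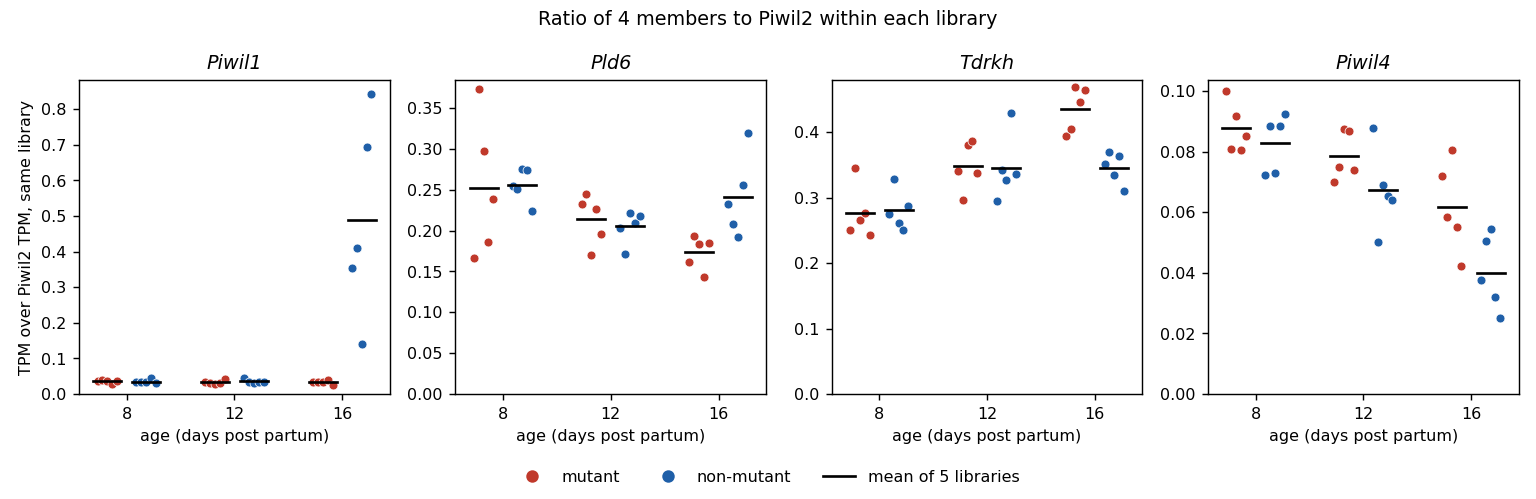
TPM of 4 members divided by the Piwil2 TPM of the same library, mutants left and non-mutants right at each age, with bars at the mean of 5. At 16 dpp Tdrkh over Piwil2 averages 0.436 in mutants and 0.346 in non-mutants, the opposite order to Piwil1 and Pld6. In TPM alone Tdrkh averages 42.7 in mutants and 47.2 in non-mutants.

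Other genes of the pathway, a list of 29 that holds Tudor proteins, regulators and partners, gave 26 that could be tested. The list was chosen with earlier results of these data known. At 16 dpp 7 of them fell in mutants and 0 rose, where 2.75% of all rows were called lower and 0.509% higher. Their median was -0.17 on the log2 scale, against 0.07 over all rows. The largest changes were in Tudor genes: Tdrd6, needed for the chromatoid body, had a log2 fold change of -2.99 (SE 0.372; limma adjusted p = 1.77e-06) and Tdrd5 one of -1.25 (SE 0.186; limma adjusted p = 2.98e-05). Tdrd1, a scaffold for PIWI proteins in nuage, had -0.77 (SE 0.184; limma adjusted p = 0.0112) and Ddx4, the germ cell RNA helicase VASA, -0.61 (SE 0.162; limma adjusted p = 0.0276), and the other 3 that fell lay between -0.73 and -0.53. Mybl1, the regulator of pachytene piRNA genes, had 24.07 to 30.47 TPM in mutants and 26.16 to 33.84 TPM in non-mutants, a log2 fold change of -0.22 (SE 0.163; limma adjusted p = 0.649). Mybl1 was lower in the mutant of 5 of 5 litters, and its groups overlapped. At the step to 12 dpp 12 of the 26 rose in mutants and 14 in non-mutants, and 0 fell. Of all rows, 17.5% were called higher at this step in mutants and 20.3% in non-mutants. At the step to 16 dpp 1 rose and 1 fell in mutants, where 6.21% of all rows were called higher and 5.89% lower. In non-mutants 14 rose and 1 fell, where 21.8% of all rows were called, 8.88% higher. The difference of the steps to 16 dpp passed for Tdrd5 and Tdrd6 alone of these 26, where 1.35% of all rows were called. The step of Mybl1 to 16 dpp passed the test in both classes, 0.57 in mutants and 0.69 in non-mutants (limma adjusted p = 0.0194 and 0.00267).

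**Figure D5:**
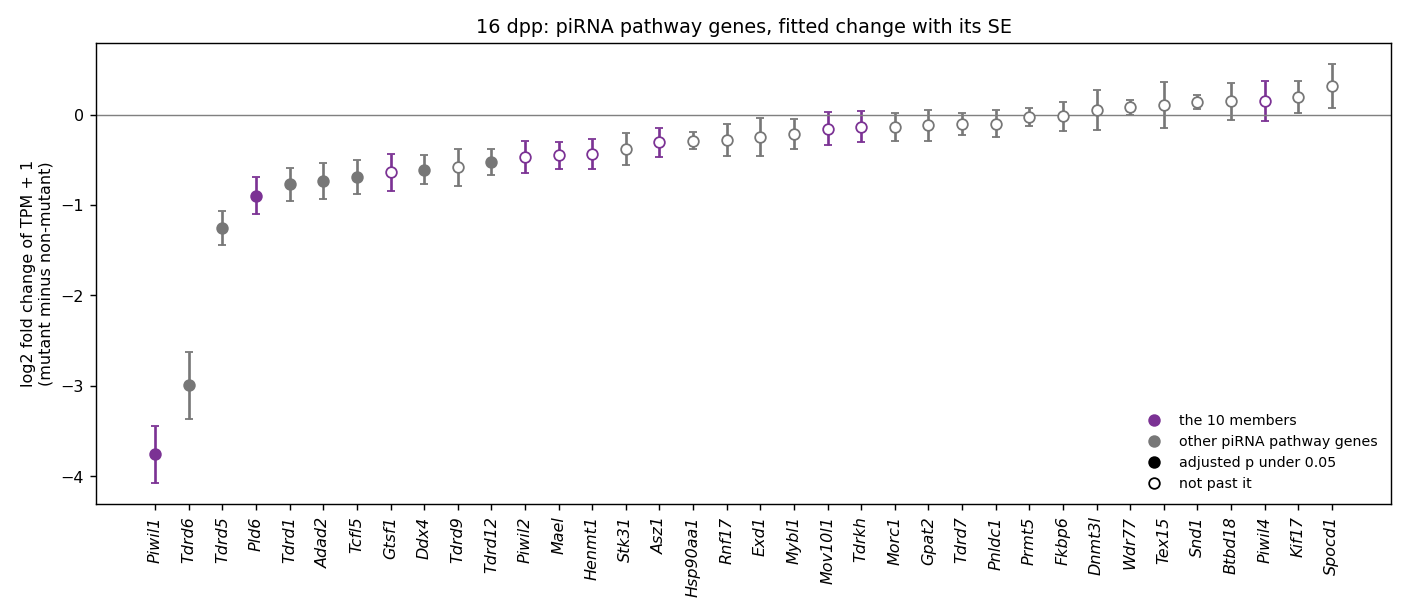
Fitted log2 change of TPM + 1, mutant minus non-mutant at 16 dpp, with its SE, for the 10 members (purple) and the 26 other pathway genes tested (grey), in order. Filled points passed an adjusted p of 0.05; Piwil1 at -3.76 lies lowest, next to Tdrd6 at -2.99.

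Genes with the profile nearest to a member over the 30 libraries were found by the root mean square difference of centred log2(TPM + 1). Only tested rows with an annotated symbol were searched, without Gm, Rik, clone, mitochondrial, NONCODE and piRNA locus names. For Piwil1, whose own profile varied by 1.52 about its mean, the nearest were Morc2b at 0.367, Cfap65 at 0.379 and Odf4 at 0.387. At 16 dpp Morc2b had 0.07 to 0.82 TPM in mutants and 5.22 to 27.17 TPM in non-mutants. For Piwil2 the nearest was Ddx4 at 0.151, followed by Tdrd1 and Pcgf5. For Piwil4 they were Sall4 at 0.174, Atoh8 and Lin28a at 0.181 each. Sall4, a transcription factor of spermatogonia, had 19.58 to 32.56 TPM in mutants and 16.07 to 30.55 TPM in non-mutants at 16 dpp. For Henmt1 the nearest were Coprs at 0.18, Entpd6 at 0.188 and Lrwd1 at 0.193. The profiles of Piwil2, Piwil4 and Henmt1 themselves varied by 0.433, 0.36 and 0.343 about their means. Against that variation their nearest genes were less close than those of Piwil1.

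Some members share their place in the genome with other genes. Piwil1 (chr5:128702524-128755474, plus strand) overlaps the antisense gene 4930553I04Rik, Piwil4 overlaps Gm10706 and Gm15586 and Henmt1 overlaps Gm9857, all on the other strand. On their own strand Piwil2 overlaps Gm22725 and Gm24890 and Mov10l1 overlaps Gm23737. Tdrkh overlaps Gm42463 on its own strand and Gm42464 and Oaz3 on the other. The use of read strand is not given in the sources used here, so the levels of these 6 members are uncertain where they share bases with such genes. Pld6 (chr11:59783897-59787645, minus strand), Mael, Asz1 and Gtsf1 overlap no other annotated gene.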

How the data were processed

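Members and gene lists were chosen with earlier results of these data known. Per the labels' protocols, tubules were digested with Liberase and washed to remove interstitial cells, and RNA was purified with RNeasy columns. The deposited unit is TPM per gene, to which the authors reduced their reads. Per the submitters' processing notes, mm10 (GRCm38) was the build, and the tools included RSEM 1.2.8 and Bowtie 1.0.0, with no role stated. Depth is unknown, since TPM does not keep it, and precision rests on the spread between animals. Between 3.23 and 3.95% of each TPM total lies outside the table as held. Symbols and positions came from GENCODE M21.

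limma-trend (limma 3.58.1, R 4.3.3) was fitted to log2(TPM + 1) for 20021 rows, those above 1 TPM in 5 or more libraries (18668 for heterozygotes against wild type, with age as a factor). The fit held 6 groups, and p-values were adjusted by Benjamini-Hochberg over all rows and called under 0.05. Fold changes are on the log2(TPM + 1) scale and understate low genes. The code was tested on simulated data.

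All members are named, with the 3 genes nearest to each of Piwil1, Piwil2, Piwil4 and Henmt1; of other pathway genes, up to 4 called ones with the smallest adjusted p, and Mybl1. The header of the deposited table names each animal's litter. Over 17 mutant and non-mutant pairs of a litter, deviations from group means correlated at 0.063 to 0.39 (median 0.22). Other pairs of an age had a median of -0.083 and ran from -0.274 to 0.213, so the ranges overlapped. Centring on group means lowers other pairs when litter mates correlate, so this contrast is partly built in. The litter was tried as a block. The labels' replicate numbers are not stated to mark litters. Alternatives were another pseudocount, filters, scalings, controls, blocks and leaving out each library.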

Additional observations from a re-analysis of the deposited data

Results flagged for a closer look

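Over 60 groups of 5 libraries (each member in each class and age), 6 held a library far from the other 4, and chance alone flags about 1 group in 20. Mov10l1 read 100.83 TPM in Prdm9-/- 8 dpp replicate 1, against 34.79 to 50.87 TPM in the other 4 of its group. In the same library Piwil4 read 13.53 TPM, against 3.82 to 6.35 TPM. Its germ cell marker sum, a list that includes Mael, was 825.13 TPM, the highest of its group, and its part in these values was not tested. In Prdm9-/- 16 dpp replicate 2, Asz1 read 55.86 TPM (40.30 to 42.71 TPM in the others) and Gtsf1 48.09 TPM (36.66 to 39.58 TPM). Mov10l1 was low in Prdm9-/- 16 dpp replicate 3, at 99.42 TPM, against 118.67 to 125.02 TPM. Piwil1 was low in Prdm9+/+ 8 dpp replicate 1, at 1.59 TPM, against 2.41 to 2.71 TPM.

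The age step to 16 dpp differed between the genotype classes for Piwil1, by -3.686 on the log2 scale (SE 0.441; limma adjusted p = 4.79e-06): its step was 0.01 in mutants and 3.70 in non-mutants.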

How the results depend on the processing

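Over 41 alternatives for mutants against non-mutants at 16 dpp, Piwil1 passed the test in all 41 (log2 fold change -4.142 to -3.437) and Pld6 in 40. The number of members that fell, 2 in the analysis reported, was 4 under median-ratio scaling, 1 with Prdm9+/+ libraries alone as control and 4 with litter as a random effect (Mael and Gtsf1 added in the first and last), and 2 to 4 over fits that left out 1 library each. With the litter as a replicate block within 16 dpp it was 3, Piwil2 (-0.466; adjusted p = 0.0374) being added. Over all rows at 16 dpp 653 were called, 757 of 19992 under median-ratio scaling, 752 of 17761 with the block and 1103 with the random effect. Litter as a random effect also ended the calls of Tdrkh at the non-mutant step to 16 dpp (adjusted p = 0.0631), Henmt1 at the non-mutant step to 12 dpp (adjusted p = 0.0664) and Piwil2 at the mutant step to 12 dpp (adjusted p = 0.0809). With the replicate number of the labels as a block, Tdrkh lost its call at the non-mutant step to 16 dpp (0.446; adjusted p = 0.0928) and Piwil2 at the mutant step to 12 dpp (0.465; adjusted p = 0.062). Members risen at the mutant step to 12 dpp, 6 as reported, were 3 with no filter on low values, 3 under median-ratio scaling, 3 without litter 13 and 3 to 7 without 1 library. At the step to 16 dpp, members risen without 1 library were 2 to 7 in non-mutants and 0 to 1 in mutants. At the non-mutant step to 12 dpp they were 4 to 6. The difference of steps to 16 dpp called 2 members under quantile normalization and 2 with litter as a random effect (Pld6 the second), and 1 to 2 without 1 library. The cause of these shifts was not tested. Litters are nested in age, so no age step could be fitted with litter as a fixed block. Depth is unknown and limits low genes such as Piwil4.

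Of 3720 values under alternatives, 131 had the other sign, 0 of them past the threshold. For mutants against non-mutants at 16 dpp, values of the other sign were Mov10l1 0.04 and Tdrkh 0.009 against Prdm9+/+ alone. At 12 dpp, values of the other sign were Piwil1 0.003, Henmt1 0.025, Asz1 0.037 and Tdrkh -0.022 against Prdm9+/- alone, Piwil4 -0.144 and Gtsf1 -0.083 against Prdm9+/+ alone, Mov10l1 0.002 without litter 13, and Henmt1 0.01 with the replicate number as a block; the ranges over fits without 1 library were Piwil1 -0.139 to 0.003, Piwil2 -0.027 to 0.059, Mov10l1 -0.103 to 0.064, Pld6 -0.005 to 0.133, Mael -0.086 to 0.001, Henmt1 -0.076 to 0.036, Asz1 -0.096 to 0.066 and Tdrkh -0.022 to 0.115. At 8 dpp, values of the other sign were Piwil1 -0.032, Piwil2 -0.011, Piwil4 -0.045 and Pld6 -0.044 against Prdm9+/- alone, Mov10l1 0.082 against Prdm9+/+ alone, Mov10l1 0.032 and Henmt1 0.03 with the replicate number as a block, Pld6 -0.015 under median-ratio scaling, and Pld6 -0.017 under quantile normalization; the ranges over fits without 1 library were Piwil1 -0.084 to 0.244, Piwil2 -0.137 to 0.236, Piwil4 -0.092 to 0.306, Mov10l1 -0.251 to 0.126, Pld6 -0.095 to 0.237, Mael -0.097 to 0.204, Henmt1 -0.271 to 0.138, Asz1 -0.005 to 0.238, Gtsf1 -0.008 to 0.357 and Tdrkh -0.127 to 0.199. For the mutant step to 16 dpp, values of the other sign were Piwil1 -0.015 and Piwil2 0.011 under quantile normalization, Piwil2 0.009 under median-ratio scaling, and Piwil2 0.001 and Gtsf1 0.012 without litter 13; the ranges over fits without 1 library were Piwil1 -0.039 to 0.093, Piwil2 -0.058 to 0.064, Asz1 -0.007 to 0.154 and Gtsf1 -0.096 to 0.033. For the difference of steps to 12 dpp, values of the other sign were Mov10l1 0.011 and Tdrkh 0.001 under median-ratio scaling, Mov10l1 0.003 and Tdrkh 0.006 without litter 13, and Pld6 -0.025 and Henmt1 -0.02 with the replicate number as a block; the ranges over fits without 1 library were Piwil1 -0.318 to 0.01, Piwil2 -0.222 to 0.152, Piwil4 -0.084 to 0.314, Mov10l1 -0.155 to 0.223, Pld6 -0.17 to 0.162, Mael -0.26 to 0.041, Henmt1 -0.149 to 0.26, Gtsf1 -0.287 to 0.078 and Tdrkh -0.171 to 0.156. For the difference of steps to 16 dpp, the ranges over fits without 1 library were Piwil4 -0.172 to 0.058. For heterozygotes against wild type, values of the other sign were Piwil4 -0.057 and Henmt1 -0.056 under median-ratio scaling, and Piwil4 -0.075 and Henmt1 -0.068 under quantile normalization; the ranges over fits without 1 library were Piwil1 -0.007 to 0.455, Piwil4 -0.098 to 0.191, Henmt1 -0.003 to 0.111 and Asz1 -0.176 to 0.047.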
